A study of Mus musculus with 8 samples.

Results

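AP-1 is a dimer of basic leucine zipper proteins of the Jun and Fos families, and the 7 mouse genes that encode these proteins are described here on 8 expression arrays. They are Jun, Junb and Jund of the Jun family and Fos, Fosb, Fosl1 and Fosl2 of the Fos family, 7 of 18194 genes measured, with 11 of 45101 probe sets. The genes were chosen by family name, and the set was picked because Jun was higher after doxycycline (Dox) only where neither Nanog nor Esrrb was forced. The Dox response of Jun, and the difference in response between backgrounds with and without a forced factor, were therefore used in the choice and are described without a test.

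All cells were NS tet-off ESCs, male mouse embryonic stem cells (ESCs) of the 129sv strain. Both endogenous alleles of NS, the nucleostemin gene Gnl3, are disrupted in them, and NS is made from a cDNA in the ROSA26 locus that Dox shuts off. The 4 backgrounds were cells with forced Nanog, cells with forced Esrrb, cells kept in the 2i condition and bearing an empty vector, and cells bearing that vector in LIF and serum. The 2i condition, which the paper also terms 2i plus LIF, holds a MEK inhibitor and a GSK-3 inhibitor. The forced factors came from stably integrated vectors under puromycin selection, in cells that the paper describes in standard medium with LIF and serum. Each background was measured after 6 days of Dox (Dox-treated, NS shut off) and without Dox (Dox-untreated, with NS), with 1 array per condition. The pair with a constitutively active Stat3 is not analysed here.

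Jun proteins bind DNA as homodimers or with a Fos protein, whereas Fos proteins need a Jun partner. Jun and Fos are immediate early genes, switched on within minutes by growth factors and stress through MAP kinases, and their products act on genes of proliferation, adhesion and invasion. JunD is generally the most constant of the Jun proteins, and Fra-1, the product of Fosl1, is itself a known target of AP-1. In the mouse embryo Junb and Fosl1 are needed in extraembryonic tissues.

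The promoters of Jun and Fos are shown because the Dox response of Jun split the backgrounds and that of Fos did not. Of the 7 members, 6 had a promoter in the RefSeq table (build GRCm38.p6), from which the 250 bases before the annotated start are printed 5′ to 3′. Capitals mark motifs found by an exact search of both strands. In Jun, at chr4:95052223-95052472 on the minus strand, they mark TTACCTCA, TGACATCA, both variants of the AP-1 and ATF element, and TATTTTTA, a core bound by MEF2 proteins. In Fos, at chr12:85473640-85473889 on the plus strand, they mark TGACGT, the core of the cAMP response element.
Jun: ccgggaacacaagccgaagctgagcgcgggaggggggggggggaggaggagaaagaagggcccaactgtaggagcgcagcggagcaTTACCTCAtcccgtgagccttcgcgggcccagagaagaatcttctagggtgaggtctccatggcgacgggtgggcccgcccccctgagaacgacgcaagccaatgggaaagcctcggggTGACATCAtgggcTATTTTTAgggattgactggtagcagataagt
Fos: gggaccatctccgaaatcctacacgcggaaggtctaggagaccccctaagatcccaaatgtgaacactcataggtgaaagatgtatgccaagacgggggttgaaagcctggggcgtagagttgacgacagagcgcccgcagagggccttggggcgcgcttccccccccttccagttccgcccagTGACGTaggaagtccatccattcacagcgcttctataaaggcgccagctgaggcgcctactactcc
The Jun motifs lay 164 to 157, 45 to 38 and 32 to 25 bases before the start, and the Fos motif 66 to 61 bases before it. TTACCTCA was in 0.728% of 32851 promoters in the table, TGACATCA in 2.93%, TATTTTTA in 2.45% and TGACGT in 6.47%. The consensus AP-1 element TGACTCA (4.46% of promoters) and the full cAMP response element TGACGTCA (1.55%, which contains TGACGT) were in 0 of the 6 member promoters. The motifs were a list set by hand, so a match in Jun or Fos is not a finding, and the shares only show how common each motif is. These matches describe letters in a window and say nothing about binding.

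By the same annotation Jun lies at chr4:95049036-95052222, Fosl2 at chr5:32136472-32157840, Fosb at chr7:19302696-19310118, Fos at chr12:85473890-85477274 and Fosl1 at chr19:5447698-5455938. Jund at chr8:70697739-70700616 and Junb at chr8:84976909-84978748 share a chromosome.

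The labels were checked first. The log2 signal of Gnl3 was 13.47 to 13.68 on the 4 Dox-untreated arrays. On the Dox-treated arrays it was 9.13 with forced Nanog, 8.61 with forced Esrrb, 8.01 in 2i and 7.79 with the empty vector. The remaining signal was thus higher with a forced factor, and its part in the Jun values was not tested. Dusp6, a feedback gene that needs MEK activity, had 7.64 on the 2i Dox-treated array and 10.95 on the 2i Dox-untreated array, against 11.40 and 10.97 on the empty vector arrays. The 2i Dox-untreated array thus did not show MEK inhibition by this gene. Over all probe sets it correlated with the empty vector Dox-untreated array at r = 0.995. The Nanog and Esrrb Dox-untreated arrays did so at 0.9947 and 0.9921, so this value does not single it out. Because of the Dusp6 values, the 2i Dox-treated values of the members are also given against the empty vector Dox-untreated array. The Nanog probe set read 12.23 and 12.35 on the Dox-treated and Dox-untreated arrays with forced Nanog, against 12.49 and 12.81 with the empty vector. The Esrrb probe set read 11.38 and 11.27 with forced Esrrb, against 10.38 and 11.31 with the empty vector. Neither array label could be checked this way, since it is not known here whether these probes detect the vector's transcript.

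A log2 ratio below subtracts the Dox-untreated from the Dox-treated log2 signal of a background, and over 2-fold means a ratio above 1 or below -1. Where 4 ratios are given together they are those of the Nanog, Esrrb, 2i and empty vector pairs, in that order. No pair has a replicate. As a guide to scale, 95% of genes differed by less than 0.56 between the 2i and the empty vector Dox-untreated arrays. For Nanog and Esrrb against the empty vector without Dox this bound was 0.53 and 0.67. On Dox-treated arrays it was 0.73 for Esrrb against Nanog and 1.08 for 2i against the empty vector. These arrays differ in condition as well, so no bound measures noise alone. Values closer than 0.56 are not put in order here, apart from counts of pairs higher or lower, which go by sign.

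Jun, the founding AP-1 protein, had a log2 signal of 7.58 on the Dox-treated and 7.44 on the Dox-untreated array with forced Nanog, and of 6.89 and 6.81 with forced Esrrb. In the 2i condition it had 8.96 on the Dox-treated and 6.53 on the Dox-untreated array, and with the empty vector 9.52 and 6.81. The Dox-treated 2i and empty vector arrays thus stood above the other 6, which lay between 6.53 and 7.58. The log2 ratio was 0.14 and 0.08 in the Nanog and Esrrb pairs, against 2.43 (5.37-fold) with 2i and 2.71 (6.53-fold) with the empty vector. Among all genes Jun ranked 105 and 103 from the top in the 2i and empty vector pairs. The other Jun probe set, 1448694_at, was dimmer and had ratios of 0.53, -0.22, 2.34 and 2.36 in the Nanog, Esrrb, 2i and empty vector pairs. Against the empty vector Dox-untreated array, Jun was higher by 2.15 on the log2 scale on the 2i Dox-treated array. The response with a forced factor minus that without one was -2.46 (standard error 0.193), a value given as a description since it chose the gene.

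Without Dox the Jun signal was not lower with the forced factors. It was 7.44 with Nanog and 6.81 with Esrrb, against 6.53 in 2i and 6.81 with the empty vector. The mean with a forced factor minus that without one was 0.46, given without a test because these levels enter the ratios that chose the gene. Junos, annotated antisense to Jun, stayed between 4.16 and 4.72 on all 8 arrays. RNA came from whole cultures, in which a change in the number of expressing cells and in RNA per cell cannot be told apart. The paper reports extensive cell death after Dox in cultures without a forced factor, and much less with forced Nanog or Esrrb. The backgrounds in which Jun was higher after Dox were thus those with extensive death. The part of cell death in the values of Jun and the other genes was not tested.

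**Figure D1:**
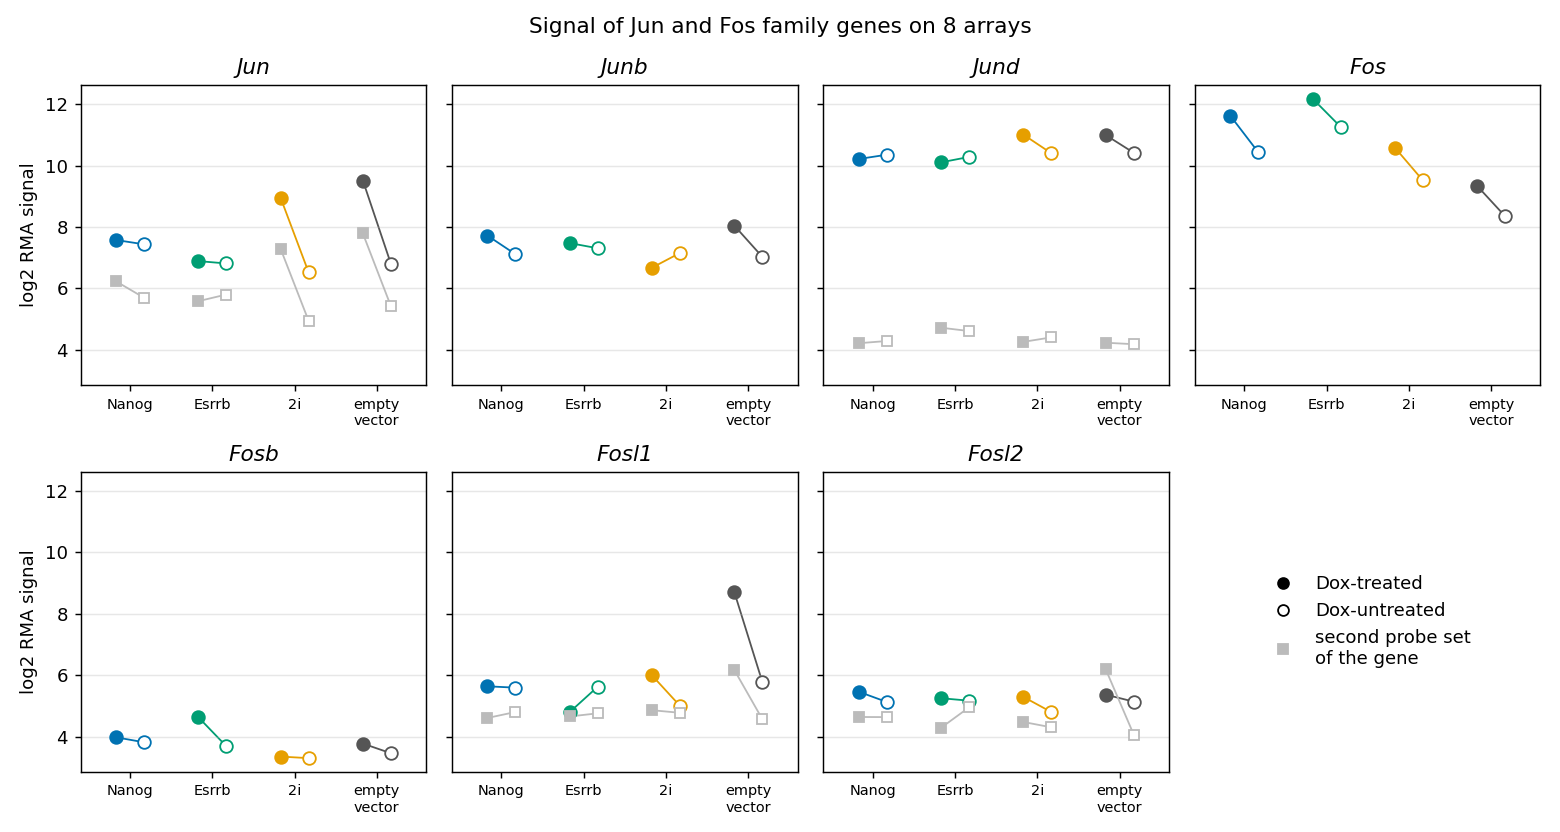
The log2 RMA signal (y axis) of each gene by background (x axis), with filled points for Dox-treated and open points for Dox-untreated arrays, 1 array per point. Grey squares give the other probe set of a gene. Jun stood at 8.96 and 9.52 on the Dox-treated 2i and empty vector arrays and at 7.58 or below elsewhere, whereas Fos was higher on the Dox-treated array in every background.

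Jund was bright on every array, at 10.11 to 11.01. Its signal was 10.22 on the Dox-treated and 10.36 on the Dox-untreated array with forced Nanog, and 10.11 and 10.29 with forced Esrrb. It was 11.01 on the Dox-treated and 10.40 on the Dox-untreated array in 2i, and 11.00 and 10.42 with the empty vector. The ratios were thus -0.14 and -0.18 with a forced factor, against 0.61 and 0.58 without one, so that Jund split the 4 pairs as Jun did but at a smaller size. The difference between these responses was -0.75 (standard error 0.117) and was not tested. The other Jund probe set, 1440265_at, lay between 4.18 and 4.72 and did not show the split, with ratios of -0.07, 0.11, -0.15 and 0.05 in the Nanog, Esrrb, 2i and empty vector pairs. Over the 4 pairs together Jund did not pass (coefficient 0.22, standard error 0.167, adjusted p = 0.45 from limma, higher in 2 of 4 pairs).

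Junb, which can oppose Jun on growth genes, followed neither pattern. It had 7.72 on the Dox-treated and 7.12 on the Dox-untreated array with forced Nanog, 7.48 and 7.31 with forced Esrrb, 6.68 and 7.16 in 2i, and 8.05 and 7.03 with the empty vector. The ratio was 1.02 in the empty vector pair, just over 2-fold, 0.61 and 0.17 in the Nanog and Esrrb pairs, and -0.48 in the 2i pair. Junb and Jun thus both had a higher signal after Dox with the empty vector, whereas in 2i Jun was higher and Junb was not. Junb did not pass the common fit (coefficient 0.33, standard error 0.245, adjusted p = 0.438 from limma, higher in 3 of 4 pairs).

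Fos had 11.63 on the Dox-treated and 10.44 on the Dox-untreated array with forced Nanog, and 12.19 and 11.27 with forced Esrrb. It had 10.59 on the Dox-treated and 9.52 on the Dox-untreated array in 2i, and 9.34 and 8.35 with the empty vector. The ratios were 1.19 (2.28-fold), 0.92 (1.89-fold), 1.07 (2.10-fold) and 0.99 (1.98-fold) in the Nanog, Esrrb, 2i and empty vector pairs. The Dox-treated array was thus higher in every background, with or without a forced factor, and the 4 ratios spanned 0.92 to 1.19. This span rests on the 2i Dox-untreated array, since against the empty vector Dox-untreated array Fos was higher by 2.24 on the 2i Dox-treated array. A limma fit of the common Dox response used the backgrounds as stand-ins for replicates and removed their differences in level with a block term. Its coefficient for Fos was 1.04 (standard error 0.0791, adjusted p = 0.0139, higher in 4 of 4 pairs). Of the 6 members tested there, 1 was called, Fos, against 3.69% of all genes called higher and 3.39% called lower. With any pair left out, 1 to 26 of 18194 genes were called higher and 2 to 14 lower. Without the block the adjusted p was 0.424. With 3 pairs it was 0.0531 without the Nanog pair, 0.0627 without the Esrrb pair, 0.0564 without the 2i pair and 0.0451 without the empty vector pair, with coefficients of 0.99 to 1.08. Fos is read by 1 probe set.

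Against the empty vector, the forced factors went with larger differences in the level of Fos than Dox did. Against 2i this did not hold for forced Nanog, with 10.44 against 9.52 without Dox and 11.63 against 10.59 with Dox. On the Dox-treated arrays Fos was higher than with the empty vector by 2.29 with forced Nanog, 2.85 with forced Esrrb and 1.25 in 2i on the log2 scale. On the Dox-untreated arrays the same differences were 2.09, 2.91 and 1.17. Every array with a forced factor without Dox (10.44 and 11.27) was above both without one (9.52 and 8.35), and the difference was 1.92 (standard error 0.416). In a limma fit of these 4 arrays (Nanog and Esrrb minus 2i and empty vector, p adjusted over all genes by Benjamini-Hochberg) it did not pass, with 2 arrays of unlike conditions a side (adjusted p = 0.446). In this fit limma called 0 genes, 0.0% in each direction, with 1493 of 18194 at an unadjusted p under 0.05. Forced-factor differences of the other 5 members besides Jun and Fos were -0.09 to 0.37, with adjusted p between 0.587 and 0.871.

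Over the 8 arrays the signals of Jun and Fos had a Pearson r of -0.12, a description over points that share 4 backgrounds and 1 normalization. The empty vector Dox-treated array had 9.52 for Jun and 9.34 for Fos, whereas the Esrrb Dox-treated array had 6.89 for Jun and 12.19 for Fos. Correlations of Jun with Jund (0.87) and Fosl1 (0.82) were higher.

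**Figure D2:**
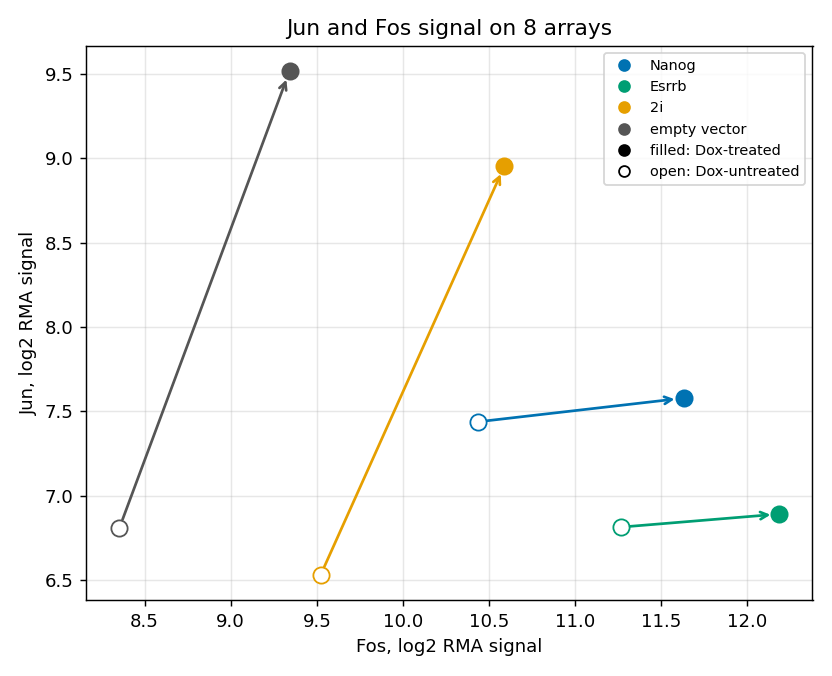
Jun (y axis) against Fos (x axis), both as log2 RMA signal, on the 8 arrays, with arrows running to the Dox-treated (filled) from the Dox-untreated (open) array of each background. All 4 arrows run about 1 unit to the right, but only those of 2i and the empty vector run up, by 2.43 and 2.71.

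Fosl1 had 5.64 on the Dox-treated and 5.59 on the Dox-untreated array with forced Nanog, and 4.80 and 5.63 with forced Esrrb. It had 5.99 and 5.001 in 2i, and 8.71 and 5.79 with the empty vector. Only the empty vector Dox-treated array stood apart, 2.72 above the next. The ratio of 2.92 (7.59-fold) in that pair ranked 83 among all genes, where Jun had 2.71. The ratios in the Nanog, Esrrb and 2i pairs were 0.04, -0.83 and 0.99, so that the 2i pair lay just under 2-fold. Against the empty vector Dox-untreated array, the 2i Dox-treated array was higher by 0.21 only. The other Fosl1 probe set, 1417488_at, had ratios of -0.19, -0.10, 0.08 and 1.60 in the Nanog, Esrrb, 2i and empty vector pairs. The common fit gave 0.78 (standard error 0.575, adjusted p = 0.43 from limma, higher in 3 of 4 pairs). The difference with minus without a forced factor was -2.35 (standard error 0.665), not tested.

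The probe sets of Fosl2, which encodes Fra-2, disagreed. The brighter one, 1422931_at, read 5.46 on the Dox-treated and 5.13 on the Dox-untreated array with forced Nanog, 5.25 and 5.17 with forced Esrrb, 5.29 and 4.80 in 2i, and 5.37 and 5.14 with the empty vector. The other, 1437247_at, read 4.64 and 4.64, 4.29 and 4.95, and 4.48 and 4.30 in the first 3 of these backgrounds, and 6.19 and 4.07 with the empty vector. By the first the empty vector ratio was 0.23, and by the other 2.13. The array with the highest value of the other probe set was also the one with the highest Fosl1. Fosl2 did not pass the common fit (coefficient 0.28, standard error 0.111, adjusted p = 0.165 from limma, higher in 4 of 4 pairs).

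Fosb was the dimmest member, at 3.30 to 4.63, where 25.5% of probe sets had a lower mean. It had 3.98 on the Dox-treated and 3.81 on the Dox-untreated array with forced Nanog, 4.63 and 3.69 with forced Esrrb, 3.35 and 3.30 in 2i, and 3.77 and 3.46 with the empty vector. Only the Esrrb pair differed by more than 0.56, with a ratio of 0.95. It did not pass the common fit (adjusted p = 0.2 from limma, higher in 4 of 4 pairs).

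**Figure D3:**
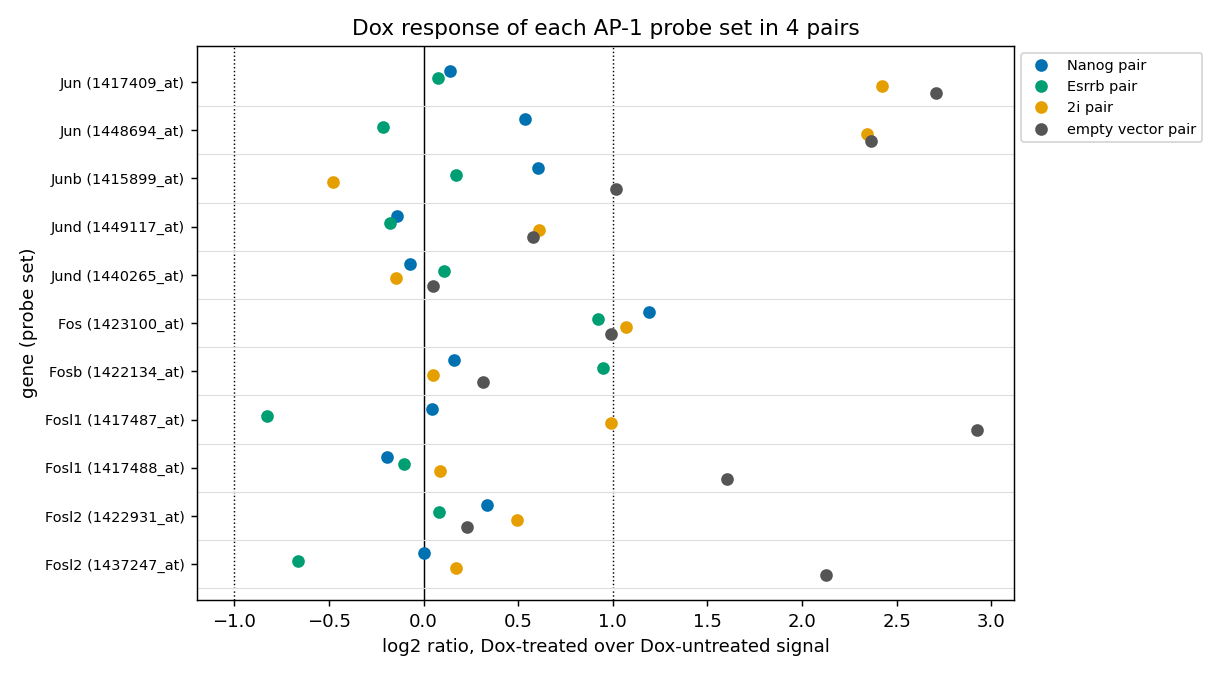
Dox response as log2 ratio (x axis) for each of the 11 probe sets (y axis) in 4 pairs, 1 point per pair, with dotted lines at 2-fold. The Fos points lie together at 0.92 to 1.19, those of both Jun probe sets split into 2 groups, and Fosl1 and the other Fosl2 probe set stand out in the empty vector pair.

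Across the family, 1 of 7 members was over 2-fold higher in the Nanog pair (Fos) and 0 of 7 in the Esrrb pair, where 1.13% and 1.06% of all genes were. In the 2i pair 2 of 7 were (Jun and Fos), where 4.81% of all genes were, and in the empty vector pair 3 of 7 (Jun, Junb and Fosl1), where 5.36% were. No member was over 2-fold lower in any pair, as 1.17% of all genes were in the Nanog pair, 0.967% in the Esrrb pair, 3.1% with 2i and 3.85% with the empty vector. Since these pairs chose the set, nothing is read from the counts. Against the empty vector Dox-untreated array, the 2i Dox-treated array differed by -0.36 for Junb, 0.59 for Jund, -0.11 for Fosb and 0.15 for Fosl2, beside the values for Jun, Fos and Fosl1 above. The median ratio of the 7 was 0.16, 0.08, 0.61 and 0.99 in the Nanog, Esrrb, 2i and empty vector pairs, beside -0.01, 0.00, 0.03 and -0.03 over all genes.

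By the likeness of their signal over the 8 arrays, among 4184 genes with a range above 1, the genes nearest to Jun were Nes (Pearson r = 0.993), St14 (0.988), Zfp248 (0.988), Plpbp (0.986) and Susd6 (0.984). Nes, the intermediate filament nestin, had ratios of -0.02, 0.11, 0.95 and 1.24 in the Nanog, Esrrb, 2i and empty vector pairs, and St14, the membrane protease matriptase, -0.05, -0.12, 0.89 and 1.01. The genes nearest to Fosl1 were Fam184b (0.990), Zyx (0.985), Klf6 (0.985), Lrrc8c (0.977) and Rai2 (0.970). Zyx, the focal adhesion protein zyxin, had -0.08, -0.30, 0.25 and 1.42. The genes nearest to Fos, a choice made after its values were seen, were Spint1 (0.963), Zbtb45 (0.955), Pfkp (0.952), Hnf4a (0.952) and Ppfibp2 (0.949). With 8 arrays such values describe these arrays only.

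Genes around AP-1 were taken from lists by role. Of the 12 measured bZIP partners, proteins that can dimerize with Jun or Fos, 0 were called higher and 2 lower in the common fit. Of all genes, that fit called 3.69% higher and 3.39% lower. Jdp2, a repressive partner of Jun, fell by 0.76 on the log2 scale (standard error 0.104) and was lower in 4 of 4 pairs (limma's adjusted p = 0.0247). Its signal was 9.39 on the Dox-treated and 9.95 on the Dox-untreated array with forced Nanog, 9.34 and 10.08 with forced Esrrb, 9.01 and 9.73 in 2i, and 8.59 and 9.62 with the empty vector. Maff, a small Maf protein, fell by 0.997 (standard error 0.191, adjusted p = 0.0413, lower in 4 of 4). Both held these calls in 0 of 4 fits that left out a pair. Averaged over its probe sets Jdp2 had -0.45 and did not pass (adjusted p = 0.067), and Maff did not pass without the block (adjusted p = 0.19). Atf3, a stress-induced partner of Jun, had ratios of -0.43 and -1.58 in the Nanog and Esrrb pairs, against 0.80 and 0.62 in the 2i and empty vector pairs. The difference with minus without a forced factor was -1.72 for Atf3 and did not pass (adjusted p = 0.12 from limma). The list median was -0.25, -0.24, -0.14 and -0.01 in the Nanog, Esrrb, 2i and empty vector pairs.

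Of 23 genes of the JNK and p38 cascade, which phosphorylates Jun and its partners, 1 rose and 1 fell in the common fit. Of all genes, 3.69% were called higher and 3.39% lower there. Mapk9, the kinase JNK2, rose by 0.46 (standard error 0.0957, adjusted p = 0.0478, higher in 4 of 4 pairs). Mapk12, the p38 gamma kinase, fell by 1.73 (standard error 0.191, adjusted p = 0.0189, lower in 4 of 4), with ratios of -1.48, -1.25, -2.31 and -1.90. Neither held in any of the 4 fits that left out a pair. Averaged over probe sets Mapk9 had 0.22 and did not pass (adjusted p = 0.204), nor did it without the block (adjusted p = 0.2), whereas Mapk12 had -0.78 and passed (adjusted p = 0.0365). Dusp1, a phosphatase that switches JNK and p38 off, had 0.38, 0.12, 0.63 and 1.54, and Map3k7, the kinase TAK1, had 0.45, 0.14, 0.97 and 1.27, in the Nanog, Esrrb, 2i and empty vector pairs. Neither passed the common fit (adjusted p = 0.127 and 0.0849 from limma). The main JNK and p38 genes Mapk8 and Mapk14 had ratios between -0.15 and -0.02 in all pairs, values named after they were seen.

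Of 10 factors that act at the Jun and Fos promoters, by binding or as cofactors, 0 rose and 1 fell in the common fit. It called 3.69% of all genes higher and 3.39% lower. Creb1, which binds the cAMP response element, fell by 0.72 (standard error 0.0846) in 4 of 4 pairs (limma's adjusted p = 0.0208), and held this call in 0 of 4 fits that left out a pair. Averaged over its probe sets it had -0.29 and did not pass (adjusted p = 0.0891). Elk3, a partner of serum response factor, had 0.83, 1.13, -0.13 and 2.35 in the Nanog, Esrrb, 2i and empty vector pairs (adjusted p = 0.14). Of 5 measured genes of Jun turnover, 0 were called in any fit, beside the same shares of all genes in the common fit. Fbxw7, the ubiquitin ligase subunit that recognizes phosphorylated Jun, had 0.33 and 0.36 with forced Nanog and Esrrb, against 1.28 and 1.44 in the 2i and empty vector pairs. The common coefficient was 0.86 (adjusted p = 0.0701) and the difference -1.01 (adjusted p = 0.0521), both short of the threshold.

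Among 18 other immediate early genes, 1 rose and 1 fell in the common fit, beside 3.69% and 3.39% of all genes. Btg2, an antiproliferative gene, rose by 1.70 (standard error 0.33, adjusted p = 0.0421 from limma, higher in 4 of 4 pairs), with ratios of 1.02, 0.86, 2.78 and 2.14. Klf10 fell by 0.93 (standard error 0.115, adjusted p = 0.0221, lower in 4 of 4). Neither held in any fit that left out a pair, and Btg2 did not pass when averaged over its probe sets (adjusted p = 0.0563). Over 2-fold higher were 4, 0, 5 and 8 of the 18 in the Nanog, Esrrb, 2i and empty vector pairs, beside 1.13%, 1.06%, 4.81% and 5.36% of all genes. Over 2-fold lower were 0, 0, 2 and 1, beside 1.17%, 0.967%, 3.1% and 3.85%. Egr1, a zinc finger factor induced together with Fos, was higher on the Dox-treated array in the Nanog and Esrrb pairs but not in the others. It had 12.74 on the Dox-treated and 11.20 on the Dox-untreated array with forced Nanog and 12.55 and 11.55 with forced Esrrb. It had 9.80 and 10.73 in 2i, and 9.41 and 9.51 with the empty vector. On the Dox-treated arrays its levels were higher with a forced factor, as those of Fos were (r = 0.861 over the 8 arrays, named after its values were seen). Without Dox the values with forced Nanog (11.20) and in 2i (10.73) lay too close to be put in order.

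The matricellular genes Ccn1 and Ccn2 had the largest ratios of the immediate early list in the empty vector pair. Ccn2 had 10.25 on the Dox-treated and 9.33 on the Dox-untreated array with forced Nanog, and 10.36 and 9.48 with forced Esrrb. It had 12.31 and 9.60 in 2i, and 12.71 and 9.66 with the empty vector. The 4 ratios were 0.93, 0.88, 2.71 and 3.05, higher in 4 of 4 pairs, and the response was smaller with a forced factor by -1.98 on the log2 scale (standard error 0.155, adjusted p = 0.047 from the limma interaction). In that fit 0.0824% of all genes were called lower and 0.0% higher. The call was lost without the Nanog or the Esrrb pair, with an adjusted p of up to 0.58, and held in 3 of 7 other settings, whose adjusted p ran from 0.0416 to 0.0693. Ccn1 had 1.45, 0.96, 2.98 and 4.53, and passed neither fit (adjusted p = 0.0569 and 0.103).

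Of 23 measured genes known as AP-1 targets in other cells, 2 rose and 1 fell in the common fit, in which 3.69% and 3.39% of all genes did. Cd44, the hyaluronan receptor, rose by 2.18 (standard error 0.444, adjusted p = 0.0455 from limma, higher in 4 of 4 pairs). Its signal was 4.76 on the Dox-treated and 3.55 on the Dox-untreated array with forced Nanog, 4.38 and 3.27 with forced Esrrb, 7.26 and 3.59 in 2i, and 6.30 and 3.58 with the empty vector. Ccnd1, cyclin D1, rose by 0.65 (standard error 0.0899, adjusted p = 0.0254, higher in 4 of 4), and Itga5, an integrin subunit, fell by 0.81 (standard error 0.147, adjusted p = 0.0373, lower in 4 of 4). None of the 3 held in a fit that left out a pair. Averaged over its probe sets Cd44 had 1.03 and did not pass (adjusted p = 0.0975), nor did it without a trend or a block (0.0527 and 0.053). Ccnd1 did not pass without the block (adjusted p = 0.379), and Itga5 had -0.45 and did not pass when averaged over its probe sets (adjusted p = 0.0863), nor, with -0.40, without probe sets ending in _x_at or _s_at (adjusted p = 0.276). Plaur, the urokinase receptor, had ratios of 0.07, 0.03, 0.10 and 2.39, the pattern of Fosl1 rather than of Jun. Vim, which encodes vimentin, had 1.03, 0.18, -0.20 and 1.24 and followed neither. Over 2-fold higher were 2, 1, 2 and 6 of the 23 in the Nanog, Esrrb, 2i and empty vector pairs, beside 1.13%, 1.06%, 4.81% and 5.36% of all genes, and the list medians were 0.07, -0.01, 0.09 and 0.20.

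**Figure D4:**
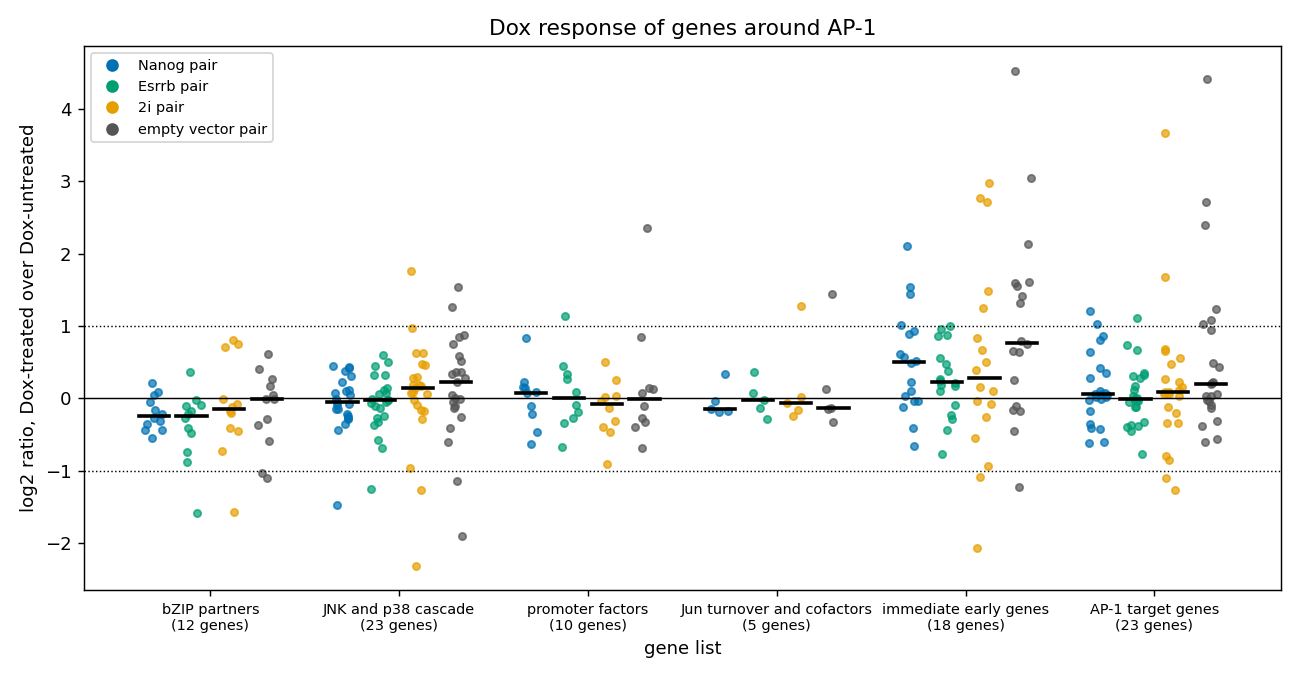
Dox response as log2 ratio (y axis) for genes of 6 lists (x axis) in 4 pairs, 1 point per gene, with black bars at the list median and dotted lines at 2-fold. The medians lie between -0.25 and 0.23 except for the immediate early genes, where they are 0.51, 0.23, 0.28 and 0.77 in the Nanog, Esrrb, 2i and empty vector pairs.

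Some markers of another cell type, trophoblast, moved with Jun. Hand1 and Elf5 among them did not, and Cdx2 did so in the empty vector pair but not in 2i. The summed signal of 9 measured trophoblast markers, on a log2 scale, was 10.48 and 10.78 on the Dox-treated arrays with forced Nanog and Esrrb, against 12.18 and 13.59 on those with 2i and the empty vector. On the 4 Dox-untreated arrays it was 9.80 to 10.95. The brightest of the 9 on the empty vector Dox-treated array were the keratin genes Krt8, Krt18 and Krt19. They had 12.25, 11.89 and 11.39 there and weigh most in the sum. In the Nanog and Esrrb pairs 5 and 4 of the 9 were higher after Dox, none over 2-fold. In both the 2i and the empty vector pair 9 of 9 were by sign, with 5 and 7 over 2-fold, though Elf5 had only 0.21 and 0.03. Of all genes, 1.13%, 1.06%, 4.81% and 5.36% were over 2-fold higher in the Nanog, Esrrb, 2i and empty vector pairs. Krt18, which is also on the AP-1 target list, had ratios of -0.17, -0.01, 1.68 and 4.42. Krt8 had -0.48, -0.39, 1.70 and 3.85, Krt19 had 0.92, 0.30, 3.21 and 4.96, and Ascl2 had 0.12, -0.03, 0.999 and 2.70. The other markers were named after their values were seen. Gata3 had 0.25, -0.21, 2.23 and 1.95, Eomes 0.56, 0.22, 1.26 and 1.10, Hand1 0.53, 0.15, 0.35 and 0.54, and Cdx2 -0.04, 0.00, 0.11 and 1.07. Elf5 lay at 3.20 to 3.47 on all 8 arrays. None of the 9 passed the common fit. The part of these markers in the Jun, Jund and Fosl1 values was not tested. The summed ES cell markers lay at 15.76 to 16.13, with 15.76 on the empty vector Dox-treated array, and Pou5f1 at 12.71 to 13.28. Of the 8 ES cell markers 1 was called, Sall4, which fell by 0.40 in the common fit (standard error 0.0826, adjusted p = 0.046, lower in 4 of 4 pairs). It held in 0 of 4 fits that left out a pair and did not pass without a trend (adjusted p = 0.072). Klf4 had -0.27, -0.13, -0.25 and -1.23, and Esrrb 0.11, 0.11, -0.01 and -0.93, and the list median was -0.06, 0.11, -0.12 and -0.47. The fibroblast markers summed to 7.64 to 8.59. As a sign of RNA quality, the Actb 3′ minus 5′ difference was 0.52 to 0.80 on the log2 scale, at 0.52 and 0.54 on the 2i and empty vector Dox-treated arrays.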

How the data were processed

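Total RNA of 8 NS tet-off ESC cultures was hybridized to Affymetrix mouse genome arrays, 1 array per condition. The authors made the deposited log2 values by RMA, run with the affy package (versions not given in the sources used here), which corrects background, normalizes by quantiles and summarizes probes. The log base is read as 2 from the range of values, 1.82 to 14.63. Quantile normalization hides a shift of all genes in one direction. The number of arrays limits the precision, and 0 value columns belong to no sample. Of 45101 probe sets, 34958 have 1 gene symbol, 932 several and 9211 none here, and 34754 of the first matched RefSeq by Entrez ID. A gene was read from its brightest probe set by mean signal.

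limma 3.58.1 (lmFit and eBayes with a trend, R 4.3.3) gave 3 fits over 18194 genes: the common Dox response (all arrays, background as a block, 3 residual degrees of freedom), the forced factor level without Dox (4 arrays, 2 degrees) and the difference in Dox response (2 degrees). Unlike backgrounds stand in for replicates, so the p-values measure only the spread between these arrays. p-values were adjusted by Benjamini-Hochberg over all genes, with a threshold of 0.05. The fits were tested on simulated data. The members and lists were chosen with earlier results of these data known. Genes set to be named were all members with all probe sets, Gnl3 and every list gene called in a fit. Added to these were, per list, up to 4 genes of largest absolute ratio in the empty vector pair. The last were the 5 genes most correlated with Jun and with the other member of the largest range. Not every list gene picked by its ratio is described in the text. Alternatives were averaging the probe sets of a gene, testing every probe set separately, dropping probe sets ending in _x_at or _s_at, a filter on dim genes, centring, another quantile normalization, eBayes without a trend, no block, other fold thresholds, another array as reference of the 2i pair, and leaving out each pair or array. Python 3.11.15 with pandas 2.3.3 and matplotlib 3.10.9 was used otherwise.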

Additional observations from a re-analysis of the deposited data

Results flagged for a closer look

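Jund had ratios below 0 in both pairs with a forced factor (-0.14 and -0.18) and above 0 in both without one (0.61 and 0.58). The difference was -0.75 on the log2 scale and was not tested. Ccn2 was flagged because the limma interaction gave a smaller Dox response with a forced factor, by -1.98 on the log2 scale (adjusted p = 0.047, ratios of 0.93 and 0.88 against 2.71 and 3.05). It held in 3 of 7 other settings and in 2 of 4 fits that left out a pair.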

How the results depend on the processing

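The fits rest on few arrays. The common response had 671 genes higher and 616 lower. With averaged probe sets 407 were higher, with every probe set tested on its own 1194 were higher and 1518 lower, and leaving out each pair gave 1 to 26 higher and 2 to 14 lower. The forced factor level had 0 genes in each direction and, leaving out each array, 0 to 54 higher and 0 to 17 lower, with the highest counts without the Nanog array. The difference in Dox response had 0 higher and 15 lower, with 2874 at an unadjusted p under 0.05. It gave 33 higher and 79 lower with every probe set, 27 and 60 without probe sets ending in _x_at or _s_at, and 20 and 57 with each array centred on its median. There were 1 lower with the mean of probe sets, 0 with the filter on dim genes and 1 with eBayes without a trend, and leaving out each pair gave 0 to 1081 higher and 0 to 1141 lower. These last fits have 1 residual degree of freedom, and the highest counts came without the 2i pair. At a 1.5-fold threshold 2, 2 and 4 members were higher in the Nanog, Esrrb and 2i pairs, and at 3-fold 0 in the Nanog and 1 in the 2i pair. The Elk3 difference (-0.13) reversed to 1.12 without the empty vector pair and was -1.37 without the 2i pair, and the cause was not tested. Over all alternatives of the tested genes, 906 values kept their direction and their side of the threshold, 37 moved past it, 67 no longer passed, and 25 changed sign without passing in either setting.

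The common response is paired by background, its block term. No paired analysis was possible by replicate number, because the labels carry none. Members just around 2-fold changed side: Junb in the empty vector pair had 0.99 after centring, Fos in that pair 1.003 after another quantile normalization, and Fosl1 in the 2i pair 1.01 after centring. Fosl2 had 1.18 in the empty vector pair as the mean of its probe sets.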
